A study of Mus musculus with 16 samples.

Results

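The BCL2 family genes described here are 10 genes whose proteins decide whether a cell opens its mitochondrial outer membrane: the pro-survival genes Bcl2, Bcl2l1, Bcl2l2 and Mcl1, the BH3-only genes Bcl2l11, Bad, Bid, Bmf and Hrk, and the effector gene Bak1. They were taken by symbol from a list of pro-survival and pro-death family genes outside the p53 target set, and are 10 of the 23284 gene symbols in the deposited files. The list does not hold the whole family, and 16 other family genes are described after them. All 10 had reads in every tumor and all 10 passed the filter on low counts, so each was tested.

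The series holds RNA sequencing of 16 mouse lung tumors, 9 labelled Max null (genotype Max -/-) and 7 labelled Max wild-type, all of strain 129/SvJ; C57BL/6. All 16 come from RP mice, letters that the labels do not spell out. In both groups genes were deleted with Ad.CMV.Cre, an adenovirus with Cre under the CMV promoter, given into the trachea. That promoter is not restricted to a cell type, and the tumors were sequenced in bulk with whatever host cells they held. The comparison asks how these transcripts differ when Max is deleted.

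BCL2 family proteins act on one another. Pro-survival members bind and hold back the effectors BAK and BAX, and BH3-only members fill the binding groove of pro-survival members or activate the effectors directly, after which cytochrome c leaves the mitochondria and caspases are activated. Small cell lung cancer is known for abundant BCL2 protein and for dependence on BCL2, BCL-xL or MCL1. MAX is the partner that MYC proteins need to bind DNA, and excess MYC activity is a classical trigger of BH3-only genes and of cell death.

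MYC-MAX dimers read the E-box letters CACGTG and, less strongly, variants such as CACGCG, while FOXO factors read TGTTTAC. RefSeq promoter windows of build GRCm38.p6, each with 250 bases before and 50 after a gene start, were found for 10 of the 10 genes, 16 windows in all. CACGTG, which is the same on both strands, was in 0 of the 16 windows and in 7.15% of all 32851 windows. CACGCG, searched on both strands, was in 2 of the 16 and in 9.27% of all. TGTTTAC, searched on both strands, was in 1 of the 16 and in 3.65% of all. The windows with a match are shown because MAX is the gene deleted here and the FOXO genes Foxo3 and Foxo4 rose. Foxo1 did not pass. The first sequence below, chr2:128125788-128126037 on the plus strand, is the 250 bases before a start of Bcl2l11, and its capitals mark the FOXO letters, read here from the opposite strand as GTAAACA, and the variant E-box CACGCG. The second, chr2:152831729-152831978 on the minus strand, is the 250 bases before a start of Bcl2l1, and its capitals mark CACGCG. A match of letters is not a measured binding site.
Bcl2l11: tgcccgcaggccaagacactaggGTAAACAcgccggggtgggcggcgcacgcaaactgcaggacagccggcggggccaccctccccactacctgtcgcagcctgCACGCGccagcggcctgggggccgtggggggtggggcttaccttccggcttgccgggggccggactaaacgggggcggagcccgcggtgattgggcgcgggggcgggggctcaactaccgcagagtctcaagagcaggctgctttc
Bcl2l1: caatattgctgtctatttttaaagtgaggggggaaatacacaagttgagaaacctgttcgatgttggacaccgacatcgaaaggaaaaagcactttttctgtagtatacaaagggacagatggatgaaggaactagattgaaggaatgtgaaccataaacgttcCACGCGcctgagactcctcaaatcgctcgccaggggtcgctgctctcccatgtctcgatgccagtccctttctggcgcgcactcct

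A null library held 8.66 to 15.1 M gene-assigned reads and a wild-type library 9.15 to 13.2 M. Values below are CPM, counts per M reads in genes after TMM scaling, and differences are null minus wild-type on the log2 scale. Max was not lower in tumors labelled null, at 64.2 to 83.5 CPM against 52.4 to 75.9 CPM (log2 difference 0.18 ± 0.11, SE, edgeR adjusted p = 0.281). Reads of all exons are summed, so this level does not check the deletion, and each group is named by its label. Insm1, a neuroendocrine transcription factor gene, measured 152 to 675 CPM over the 16 tumors. Neurod1, which defines a subtype of small cell lung cancer, had a median of 0.0981 CPM in null and 0.351 CPM in wild-type tumors. The share of multiply aligned reads, those with more than 1 place in the genome, was 9.17% to 11.8% in null libraries and 12.3% to 22.2% in wild-type libraries, highest in wild-type tumors 7, 4 and 2. Reads assigned to no single gene made up 29.2% to 32.9% of null and 32.8% to 45.6% of wild-type libraries. Of the host cell markers, 4 of 9 macrophage, 1 of 6 neutrophil and 1 of 6 alveolar type 1 genes were lower in null tumors, beside 8.64% of all tested genes. Higher were 2 of 7 alveolar type 2 genes, beside 7.40% of all tested genes. In the other host lists no tested marker was called in either direction, where 16% of all tested genes were. These were 0 of 5 T and NK cell, 0 of 4 B and plasma cell, 0 of 7 endothelial, 0 of 7 fibroblast and 0 of 5 airway genes. The part of these cells in the differences below was not tested.

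None of the 10 genes passed the test. At an adjusted p under 0.05 (edgeR quasi-likelihood test, Benjamini-Hochberg over all 14825 tested genes), 0 of 10 were called, while 16% of all tested genes were. By direction, 0 of 10 were called higher in null tumors (7.40% of all) and 0 of 10 lower (8.64% of all). At an unadjusted p under 0.05 the count was 1 of 10, Bcl2l2, against 32.8% of all tested genes. DESeq2 called 0 of 10 (20.3% of all), edgeR with tumor number as a block called 0 of 10 (2.15% of all), and limma-voom with quality weights called 1 of 10, Hrk (16.5% of all). In none of the 10 did the groups separate without overlap, which 1.56% of all tested genes did. The fitted difference was above 0 for 3 genes (47.6% of all tested genes) and below 0 for 7 (52.4% of all). Its median was -0.23, beside a median of -0.03 over all tested genes. In size the median difference was 0.31, beside 0.39 over all tested genes.

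**Figure D1:**
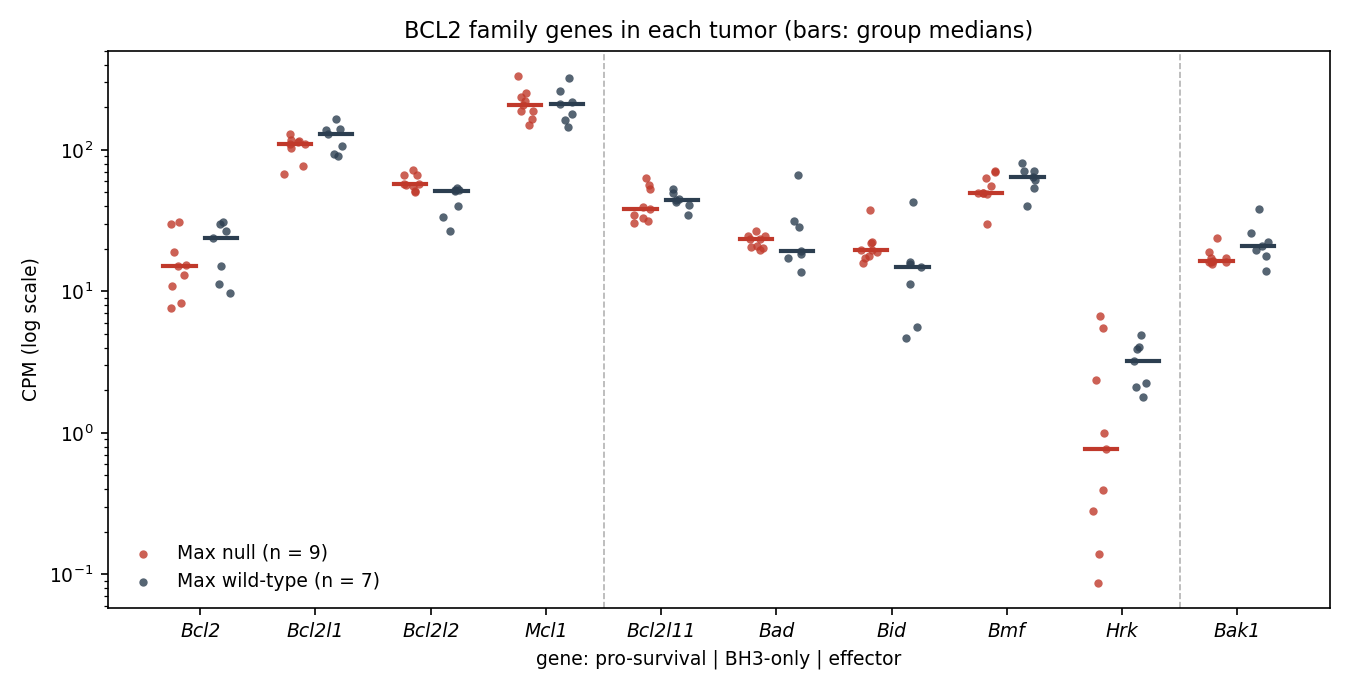
CPM of each gene in each tumor on a log axis, with Max null tumors in red (n = 9), Max wild-type tumors in dark blue (n = 7) and group medians as bars. The groups overlap for every gene; Hrk spreads widest among null tumors and Bid and Bad among wild-type tumors.

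Mcl1, whose short-lived protein blocks BAK and BIM, measured 149, 209 and 332 CPM at the lowest, median and highest null tumor and 146, 210 and 321 CPM in wild-type tumors. The groups covered nearly the same range, with 4 null tumors above the wild-type median and 5 below. The log2 difference was 0.01 ± 0.19 (SE, edgeR adjusted p = 0.971), with a 95% confidence interval from -0.38 to 0.41. Its sign was negative with upper-quartile scaling, at -0.02.

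Bcl2l1, which encodes BCL-xL, measured 67.2, 110 and 129 CPM at the lowest, median and highest null tumor and 90.8, 130 and 164 CPM in wild-type tumors. All 9 null tumors lay below the wild-type median, and 4 wild-type tumors lay above the highest null tumor, a log2 difference of -0.24 ± 0.16 (edgeR adjusted p = 0.323, interval -0.57 to 0.10). It was -0.15 without wild-type tumor 2, the highest, and -0.05 without wild-type tumors 2, 4 and 7.

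Bcl2l2, which encodes BCL-w, a pro-survival protein best known from neurons and testis, came nearest to the threshold. It measured 50.6, 56.9 and 71.7 CPM at the lowest, median and highest null tumor and 26.7, 51.5 and 54.0 CPM in wild-type tumors. In 7 of 9 null tumors it was above the highest wild-type tumor, and in 3 wild-type tumors, numbers 3, 4 and 7, it was below the lowest null tumor. The log2 difference was 0.42 ± 0.16 (edgeR unadjusted p = 0.0171, adjusted p = 0.0781, interval 0.08 to 0.75). The lowest values, 26.7 and 33.4 CPM, were those of wild-type tumors 4 and 7, whose libraries had 20.8% and 22.2% multiply aligned reads. The difference was 0.26 without wild-type tumors 2, 4 and 7 (adjusted p = 0.32, with 0 of 10 members and 1.68% of all tested genes called) and 0.04 with that share as a covariate (adjusted p = 0.941, with 0 of 10 members and 0.0675% of all tested genes called). The share does not overlap between the groups, so it and the genotype cannot be told apart in this fit. In the GRCm38 annotation 13.3% of the exon bases of Bcl2l2 overlap Gm20521 on the same strand, a symbol absent from these counts.

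Bcl2, the founding pro-survival gene, varied more between tumors than between groups. It stood at 7.58, 19.0, 15.4, 8.32, 30.0, 15.0, 31.1, 10.9 and 13.1 CPM in null tumors 1 to 9. The values were 23.9, 11.2, 15.2, 29.9, 30.7, 26.5 and 9.71 CPM in wild-type tumors 1 to 7. Null tumors 5 and 7 were as high as the highest wild-type tumors, while 7 of 9 null tumors lay below the wild-type median. The log2 difference was -0.33 ± 0.33 (edgeR adjusted p = 0.515), with an interval from -1.03 to 0.37. It ranged from -0.21 without wild-type tumor 5 to -0.50 without null tumor 7, and was -0.53 without wild-type tumors 2, 4 and 7, -0.60 after a length and GC correction and -0.73 with limma-voom, none of them past the threshold. In bulk tissue fewer cells that express a gene and less RNA per cell cannot be told apart. Lymphocytes also express Bcl2. The 9 T and NK cell markers summed to 3.03 to 17.3 CPM in null and 2.87 to 23.3 CPM in wild-type tumors, and the 6 B and plasma cell markers to 13.3 to 195 and 21.7 to 506 CPM, with 0 of the 9 tested markers called (16% of all tested genes were). Their part in the spread of Bcl2 was not tested. D630008O14Rik overlaps 6.1% of the exon bases of Bcl2 on the opposite strand in the GRCm38 annotation.

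Per kb of merged exons (GENCODE M21, GRCm38), Mcl1 and Bcl2l1 held the top of the order of levels in both groups. Mcl1 was the most abundant, at 63.0 ± 15.9 CPM per kb (SD, n = 9 null tumors) and 62.5 ± 17.7 (n = 7 wild-type tumors). Bcl2l1 followed at 22.8 ± 4.32 and 26.9 ± 5.93, and each stood above the next gene in 16 of 16 tumors. Bcl2 stood ninth of the 10 genes, at 1.83 ± 0.941 and 2.30 ± 0.965 CPM per kb. Of the summed CPM per kb of the 4 pro-survival genes, Mcl1 took 56.5% to 68.8% in null tumors and 53.7% to 69.0% in wild-type tumors. Bcl2l1 took 15.8% to 27.9% and 21.3% to 35.5%. Bcl2 took between 0.640% (null tumor 4) and 4.43% (null tumor 5). The exon lengths come from GRCm38 and the counts from mm9. Merged exons of Bcl2l1 hold 4586 bases and its longest transcript 2568, while Mcl1 has 3418 by both. By transcript length Bcl2l1 would stand higher relative to Mcl1, so the order and the shares hold for merged exons only.

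**Figure D2:**
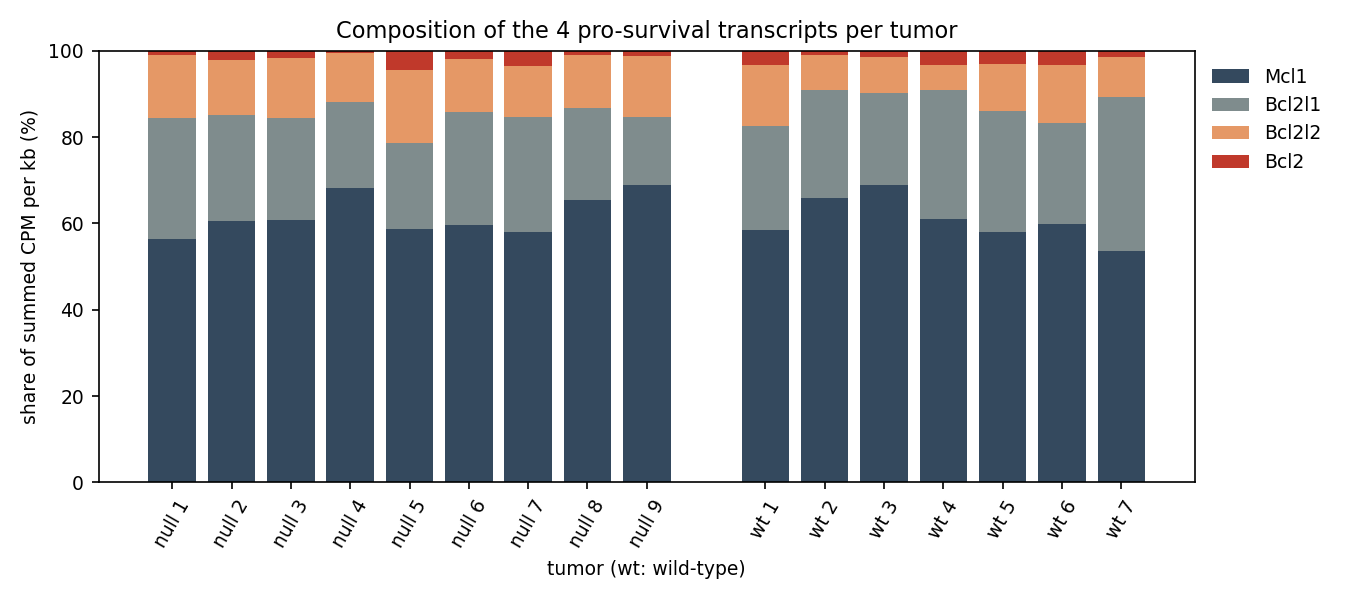
Share of each pro-survival transcript in the summed CPM per kb of the 4 genes, in percent, 1 bar per tumor, null tumors on the left and wild-type tumors (wt) on the right. By merged exon length, Mcl1 takes the largest share in all 16 tumors, Bcl2l1 the next, and the Bcl2l2 band is thinnest in wild-type tumor 4 (5.96%).

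Among the BH3-only genes, Bcl2l11, which encodes BIM, a binder of all pro-survival proteins and an activator of BAX and BAK, measured 30.5, 38.3 and 63.5 CPM at the lowest, median and highest null tumor and 34.4, 44.0 and 53.2 CPM in wild-type tumors. The null range enclosed the wild-type range. Null minus wild-type was -0.06 ± 0.18 (edgeR adjusted p = 0.838, interval -0.43 to 0.31). Its sign was positive without wild-type tumors 2, 4 and 7, at 0.03, and it was -0.25 after the length and GC correction.

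Bmf, whose protein is held on the cytoskeleton and released when cells detach, measured 29.9, 49.9 and 70.6 CPM at the lowest, median and highest null tumor and 40.4, 64.2 and 80.2 CPM in wild-type tumors. In 7 of 9 null tumors it lay below the wild-type median, and the groups differed by -0.23 ± 0.18 on the log2 scale (edgeR adjusted p = 0.396, interval -0.60 to 0.15). The value was -0.15 without null tumor 5 or without wild-type tumor 5, and -0.47 after the length and GC correction.

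Bid, which links death receptors to the mitochondria after cleavage by caspase-8, measured 19.7, 17.3, 21.8, 15.9, 37.4, 22.2, 18.9, 17.8 and 19.6 CPM in null tumors 1 to 9. The values were 42.7, 4.68, 5.58, 15.7, 11.2, 14.8 and 16.2 CPM in wild-type tumors 1 to 7. All 9 null tumors lay above the wild-type median and 5 of 7 wild-type tumors lay below the lowest null tumor, but wild-type tumor 1 had the highest value of all 16. The log2 difference was 0.42 ± 0.36 (edgeR adjusted p = 0.446, interval -0.34 to 1.18). Without wild-type tumor 1 it was 0.91 ± 0.29 and passed (edgeR adjusted p = 0.0372, where 20.3% of all tested genes passed), in a range of adjusted p over its alternatives from 0.0372 to 0.848. Leaving out null tumor 5 gave 0.27, and leaving out wild-type tumors 2, 4 and 7 gave 0.18. In the GRCm38 annotation 17.7% of the exon bases of Bid overlap Bcl2l13 on the opposite strand. The strand setting of the counting is not given in the sources used here, so Bid is uncertain to that extent.

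Bad, whose protein is held by 14-3-3 proteins while growth factor signaling is on, gave a mean and a median of opposite sign. It stood at 24.5, 20.4, 26.6, 20.1, 24.7, 23.6, 23.6, 21 and 19.5 CPM in null tumors 1 to 9. In CPM it stood at 17.2, 18.4, 31.5, 28.4, 19.4, 13.8 and 65.9 in wild-type tumors 1 to 7. All 9 null tumors lay above the wild-type median of 19.4 CPM, yet the log2 difference was -0.29 ± 0.27 (edgeR adjusted p = 0.468, interval -0.85 to 0.27), and it was 0.07 without wild-type tumor 7. That tumor had the highest share of multiply aligned reads, 22.2%, and the difference was 0.14 without wild-type tumors 2, 4 and 7. The standard deviation was 2.47 CPM among null and 18 CPM among wild-type tumors. Exons of Gpr137 overlap 20.5% of the exon bases of Bad on the opposite strand.

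Hrk, a BH3-only gene of neurons and neuroendocrine cells, was the least abundant and the most variable member. Its levels were 2.35, 0.393, 0.0875, 0.999, 5.47, 0.281, 6.64, 0.140 and 0.769 CPM in null tumors 1 to 9, from 1 to 92 reads. It measured 3.22, 2.11, 1.8, 4.93, 2.24, 4.02 and 3.91 CPM in wild-type tumors 1 to 7. In 6 of 9 null tumors it was below the lowest wild-type tumor, and in null tumors 5 and 7 it was above the highest. On the log2 scale null minus wild-type was -0.74 ± 0.70 (edgeR adjusted p = 0.484, interval -2.20 to 0.72). Limma-voom with quality weights gave -2.15 (adjusted p = 0.0474), and without null tumor 7 the edgeR value was -1.30, in a range of adjusted p over its alternatives from 0.0474 to 0.964. Counting error is large at 1 to 4 reads, which 4 null tumors had.

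Bak1 encodes BAK, the effector that sits in the outer membrane and is held by MCL1 and BCL-xL. Its levels were 17.3, 16.1, 19.1, 15.6, 16.3, 17.2, 23.8, 16 and 16.1 CPM in null tumors 1 to 9. It measured 19.6, 20.8, 17.7, 22.2, 25.9, 38.1 and 13.9 CPM in wild-type tumors 1 to 7. In 8 of 9 null tumors it lay below the wild-type median, while wild-type tumor 7 was the lowest of all 16. The log2 difference was -0.37 ± 0.19 (edgeR unadjusted p = 0.0723, adjusted p = 0.193, interval -0.78 to 0.04), -0.53 without wild-type tumors 2, 4 and 7 and -0.19 without wild-type tumor 6. Ggnbp1 overlaps 25.5% of the exon bases of Bak1 on the opposite strand.

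**Figure D3:**
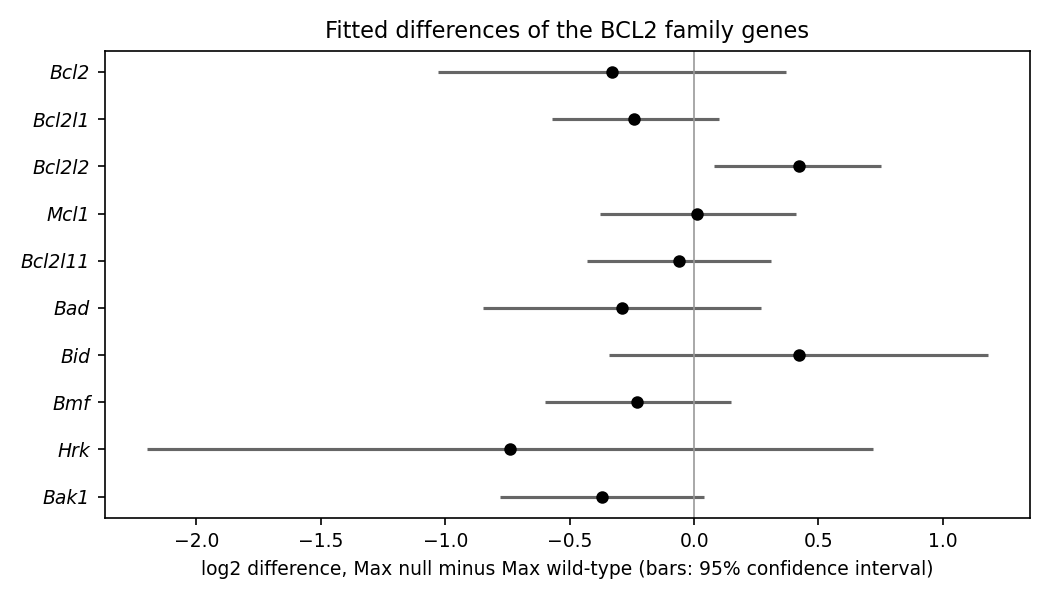
Fitted log2 difference of each gene, Max null minus Max wild-type, with its 95% confidence interval as a bar. The interval of Bcl2l2 alone leaves out 0 (0.08 to 0.75), before adjustment over genes, and that of Hrk is the widest (-2.20 to 0.72).

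The members differed widely in how much they varied between tumors of 1 group. After each group mean was removed, the standard deviation of log2 CPM was 1.36 for Hrk, 0.74 for Bid and 0.70 for Bcl2, at percentiles 94.6, 72.6 and 69.7 of all tested genes. It was 0.29 for Bcl2l2, 0.31 for Bcl2l1, 0.32 for Bcl2l11 and 0.33 for Bak1, at percentiles 11 to 17.7. Null tumor 5 had the lowest Bcl2l1, Mcl1 and Bmf and the highest Bid of the 9 null tumors, with Bcl2 and Hrk next to the highest. Null tumor 4 had the highest Bcl2l1, Bcl2l2 and Mcl1 of that group and the lowest Bcl2l11 and Bid.

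Below Bcl2l1, neighbouring genes changed places between tumors. Bcl2l2 was above Bmf in 8 of 9 null tumors and in 1 of 7 wild-type tumors, at 13.3 ± 1.65 against 10.3 ± 2.41 CPM per kb in null tumors (SD) and 9.94 ± 2.45 against 12 ± 2.48 in wild-type tumors. Bmf and Bad, and Bad and Bak1, lay within their spreads in wild-type tumors. Bcl2l11 and Bid also did, at 5.25 ± 1.51 and 5.96 ± 1.8 CPM per kb in null tumors. Hrk was last in 16 of 16 tumors.

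Between tumors of the same group, 6 of the 45 pairs of members had a Pearson correlation of at least 0.5 in size, 1 positive and 5 negative. The share among pairs of all tested genes was not computed, so this count has no background. Of the negative pairs, Bad and Bak1 (r = -0.65, rho = -0.21) gave 0.04 without wild-type tumors 6 and 7. Their r was 0.52 within null and -0.81 within wild-type tumors. Mcl1 and Bid gave the strongest, r = -0.73 over 16 tumors with group means removed (permutation test within groups, p = 0.00125, adjusted over 45 pairs 0.0562) and Spearman's rho = -0.80 (permutation p = 0.00053, adjusted 0.0238). Within groups r was -0.70 (9 null tumors) and -0.84 (7 wild-type tumors), and it was -0.67 without the 2 tumors farthest from the median of Mcl1. The Pearson value therefore missed the threshold after adjustment and the rank value passed it. Bcl2l2 and Bad followed at r = -0.66 (permutation p = 0.0427, adjusted 0.384; rho = -0.79, adjusted 0.0766). For Bcl2l2 and Bad r was -0.36 within null and -0.71 within wild-type tumors. Of the 45 pairs, only Mcl1 and Bid passed after adjustment, and only by rank. These values share library depth and the share of multiply aligned reads, whose part was not tested.

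The genes whose pattern over the 16 tumors was most like each member, out of 13305 genes searched by Pearson's r with group means removed, were led by Cox8a (r = 0.94) and Romo1 (0.93), both short mitochondrial genes, for Bad, and by Gpc2 (0.93) and Ubtd2 (0.91) for Bid. For Mcl1 they were Ppapdc1b and Tram1 (both 0.88), for Bcl2 Emilin1 (0.87) and Abi3 (0.84), for Bcl2l1 Hsd3b7 and H2-Q2 (both 0.85), and for Bcl2l2 Cog3 (0.87) and Ddx19b (0.84). For Hrk they were Chst10 (0.88) and Bdh1 (0.86), and for Bmf Fkbp15 (0.86) and Ets2 (0.83). Bak1 (Tmem183a 0.79, Tbc1d5 0.78) and Bcl2l11 (Tug1 and Acot7, both 0.77) had the weakest matches. They are the highest of many, so they carry no p.

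The rest of the family and of the pathway gave 18 called genes among the 91 tested (19.8%, beside 16% of all tested genes), 9 higher and 9 lower. All 18 kept their sign without wild-type tumors 2, 4 and 7, where 1 of them was called, Foxo3, and 1.68% of all tested genes were. In that fit 16 of the 18 differences were smaller, 5 of them by over 1.5 times. With the multiply aligned share in the model all 18 kept their sign, 0 of the 18 were called and 14 were smaller by over 1.5 times. Of all tested genes 0.0675% were called there. The multiply aligned share does not overlap between the groups, so it and the genotype cannot be told apart in that fit. After the length and GC correction 10 of the 18 were called (10.8% of all tested genes). With tumor number as a block 2 were, Foxo3 and Ddit3 (2.15% of all tested genes).

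**Figure D4:**
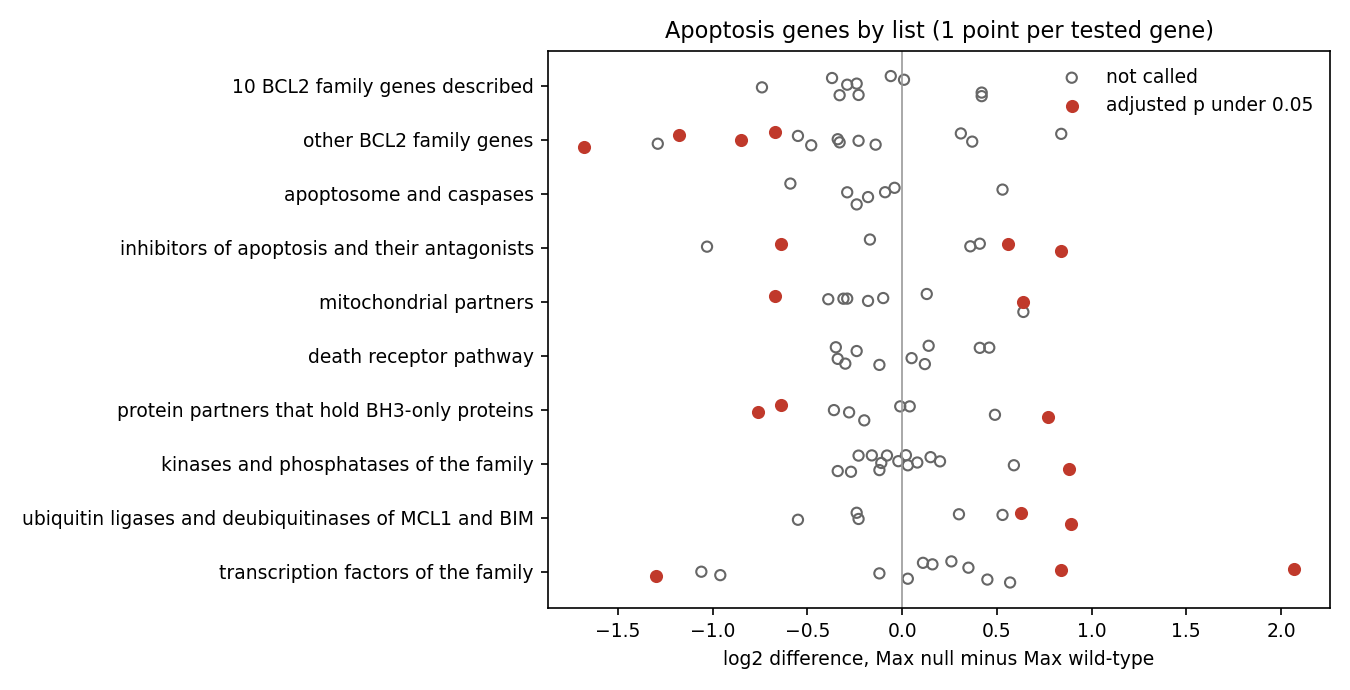
Log2 difference, Max null minus Max wild-type, of every tested apoptosis gene, 1 point per gene and 1 row per list, with genes at an adjusted p under 0.05 filled in red. The top row, the 10 BCL2 family genes described, lies between -0.74 and 0.42 with no filled point, and Foxo3 at 2.07 is farthest to the right.

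Of the 14 other family genes tested, 0 rose, 4 fell and 10 did not pass. Of all tested genes 7.40% rose and 8.64% fell, and the counts of each list below stand beside these shares. At such shares a short list holds few calls. Those that fell were Bik, a BH3-only gene of the endoplasmic reticulum (16.4 ± 4.57 against 37.4 ± 24.8 CPM, SD, n = 9 and 7; log2 difference -1.18 ± 0.31, SE, edgeR adjusted p = 0.0207), Bnip3l, a mitophagy receptor (-0.67 ± 0.17, adjusted p = 0.016), Bcl2l15 (-1.68 ± 0.44, adjusted p = 0.019, at 0.627 CPM in null and 2 CPM in wild-type tumors, means) and Bcl2l12 (-0.85 ± 0.27, adjusted p = 0.0418, named after its value was seen). Bik was -0.47 without wild-type tumors 2, 4 and 7 and -0.62 with limma-voom, and was called in neither, nor without wild-type tumor 7 alone (-0.82). Bnip3l was -0.44 without those tumors (not called), and Bcl2l12 lost its call in 11 of 16 fits without 1 tumor. The p53 targets Bax (-0.48 ± 0.21, adjusted p = 0.127), Bbc3 (0.37 ± 0.24, adjusted p = 0.293) and Pmaip1 (-0.14 ± 0.33, adjusted p = 0.807) did not pass, and each changed sign when the multiply aligned share entered the model, to 0.13, -0.07 and 0.25. Bax, an effector gene as Bak1 is, measured 69.7 ± 18.5 against 97.2 ± 38.8 CPM.

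Downstream of the mitochondria, 0 of 7 apoptosome and caspase genes passed. Cycs, which encodes cytochrome c, was just outside, at -0.59 ± 0.20 (edgeR adjusted p = 0.0504), and passed with DESeq2 (adjusted p = 0.036). Of 7 inhibitors of apoptosis and their antagonists, 2 rose, 1 fell and 4 did not pass. The caspase inhibitor gene Xiap rose by 0.56 ± 0.17 (adjusted p = 0.0379) and Htra2, whose protein removes such inhibitors, by 0.84 ± 0.20 (adjusted p = 0.0135). Diablo, a further antagonist of these inhibitors, fell by 0.64 ± 0.16 (adjusted p = 0.0152). Diablo was -0.32 (adjusted p = 0.208) with wild-type tumors 2, 4 and 7 left out. Xiap lost its call in 9 of 16 fits without 1 tumor. Among 9 mitochondrial partners, Aifm1 rose by 0.64 ± 0.15, Vdac3 fell by 0.67 ± 0.18 (edgeR adjusted p = 0.011 and 0.0232) and 7 did not pass. In the death receptor pathway 0 of 10 passed, among them Tnfrsf1a (-0.24 ± 0.16) and Casp8 (-0.30 ± 0.18), which encodes the caspase that cleaves BID.

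Genes for proteins that hold, modify or degrade the members moved in both directions. Of 9 genes for dynein light chains and 14-3-3 proteins, which hold BMF, BIM and BAD, Ywhag rose by 0.77 ± 0.18, Ywhaq fell by 0.64 ± 0.19, Dynll1 fell by 0.76 ± 0.25 (edgeR adjusted p = 0.0109, 0.0322 and 0.0469) and 6 did not pass. Dynll1 lost its call in 12 of 16 fits without 1 tumor and was -0.39 without wild-type tumors 2, 4 and 7 and -0.02 with the multiply aligned share in the model. Ywhaq was -0.40 without wild-type tumor 7 and -0.37, not called, without all 3. Of 15 kinases and phosphatases 1 rose, Pim2, whose kinase phosphorylates BAD (0.88 ± 0.25, adjusted p = 0.0259). Of 7 tested ubiquitin ligases and deubiquitinases 2 rose, Huwe1, a ligase for MCL1 (653 ± 148 against 352 ± 92.3 CPM; 0.89 ± 0.20, adjusted p = 0.00948), and Usp9x, which removes ubiquitin from MCL1 (0.63 ± 0.19, adjusted p = 0.0334). After the length and GC correction neither passed, at 0.40 for Huwe1 (adjusted p = 0.126) and 0.32 for Usp9x (adjusted p = 0.227). Usp9x also lost its call in 7 of 16 fits without 1 tumor.

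Of 13 transcription factors known to act on family genes, 2 rose, 1 fell and 10 did not pass. Foxo3, an activator of Bcl2l11, measured 29.9, 39.4 and 55.7 CPM at the lowest, median and highest null tumor and 2.14, 8.01 and 26.7 CPM in wild-type tumors, with no overlap. Its log2 difference was 2.07 ± 0.38 (edgeR adjusted p = 0.00412), 1.56 without wild-type tumors 2, 4 and 7 (adjusted p = 0.029), and 0.98 with the multiply aligned share in the model (adjusted p = 0.272). Foxo4 rose by 0.84 ± 0.19 (adjusted p = 0.0105). Foxo1 lay in the other direction and did not pass, at -0.96 ± 0.46 (edgeR adjusted p = 0.156). Ddit3, which encodes CHOP, another activator of Bcl2l11, fell by 1.30 ± 0.27 (adjusted p = 0.00672). It was -0.75 after the length and GC correction (adjusted p = 0.0553) and -0.83 with the multiply aligned share in the model (adjusted p = 0.305). Bcl2l11 itself, whose promoter window above holds the FOXO letters, had the difference of -0.06 ± 0.18 given above. Whether any of these factors acts on Bcl2l11 in these tumors was not tested.

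**Figure D5:**
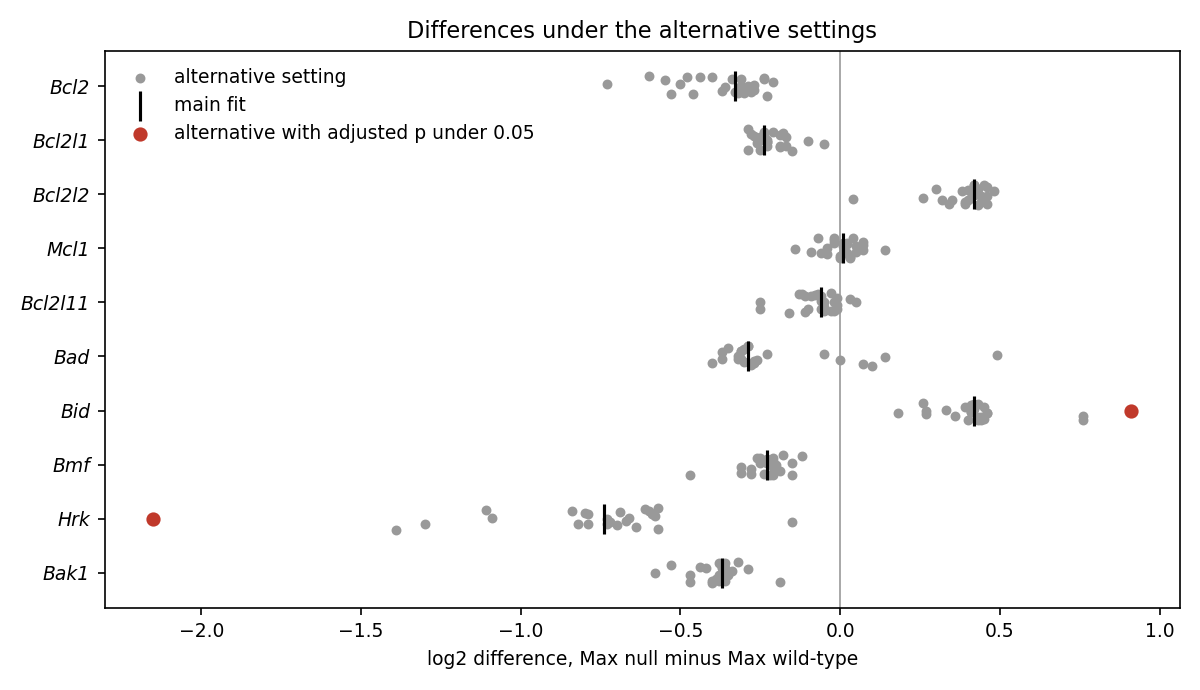
Log2 difference of each member, Max null minus Max wild-type, with edgeR on all 16 tumors (black bar) and under each alternative setting (grey points, 26 settings), with alternatives at an adjusted p under 0.05 in red. Bid without wild-type tumor 1 (0.91) and Hrk with limma-voom (-2.15) are the only red points, and points of Mcl1, Bcl2l11 and Bad lie on both sides of 0.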

How the data were processed

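RNA of 16 tumors was sequenced, and the authors deposited counts, whole reads per gene symbol for 23284 symbols. Tools named in the submitters' processing notes are HTSeq 0.6.1, TopHat, TopHat2 2.0.12 and bcl2fastq 1.8.4, with the build mm9. Annotation and strand setting: not given in the sources used here. HTSeq's totals of reads in no single gene (29.2% to 32.9% of null and 32.8% to 45.6% of wild-type libraries) stayed out of library sizes. Groups come from the labels, which do not tie tumors to animals. Every tumor was treated as independent, so a p-value weighs a difference against the spread between these tumors. If some tumors share an animal, the number of tumors overstates the replication. The main test was edgeR 4.0.16 (R 4.3.3) quasi-likelihood with TMM and filterByExpr on 16 tumors. The SE is the log2 difference divided by the root of F. Alternatives were other scalings and filters, DESeq2 1.42.0, limma 3.58.1 (voom), tumor number as a block, a length and GC correction (98.9% of tested genes), the multiply aligned share as a covariate and leaving out tumors. Correlations used log2 CPM with a prior count of 2 and 100000 permutations. Members and lists were chosen with earlier results of these data known. Named genes are the 10 members, Bax, Bbc3, Pmaip1, up to 3 called genes of smallest p per list (otherwise the 2 most abundant) and the 2 genes most like each member at a mean of at least 1 CPM, unnamed gene models left out.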

Additional observations from a re-analysis of the deposited data

Results flagged for a closer look

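In 20 groups of values (10 genes in each genotype), 4 had a tumor far from the others of its group by Dixon's criterion. For normally distributed values chance meets it in about 1 group in 20. The values here were CPM without a log, and the groups share the same 16 tumors, so that rate is only a guide. Bad measured 65.9 CPM in wild-type tumor 7, with the nearest wild-type tumor at 31.5 CPM. Bid measured 42.7 CPM in wild-type tumor 1, with the nearest at 16.2 CPM, and 37.4 CPM in null tumor 5, with the nearest at 22.2 CPM. Bak1 measured 23.8 CPM in null tumor 7, with the nearest at 19.1 CPM.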

How the results depend on the processing

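Over 259 values of the 10 genes under 26 settings, 241 kept their direction and stayed outside the threshold, 16 changed sign and 2 passed it, Bid without wild-type tumor 1 and Hrk with limma-voom. Mcl1, at 0.01, was -0.02 with upper-quartile factors, -0.06 with voom, -0.04 with the replicate block and -0.14 with the multiply aligned covariate, and lay between -0.09 and 0.14 when 1 tumor was left out. Bcl2l11 was 0.03 without wild-type tumors 2, 4 and 7 and 0.05 with the covariate. Bad was 0.10 with voom, 0.14 without those 3 tumors, 0.49 with the covariate, and between -0.40 and 0.07 when 1 tumor was left out. Bax was 0.13, Bbc3 -0.07, Cycs 0.00 and Pmaip1 0.25 with the covariate. Pmaip1 was also 0.18 without those tumors, 0.10 after the length and GC correction, and between -0.27 and 0.06 without 1 tumor. The cause was not tested.

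The count of members called higher was 0, and 0 to 1 without 1 tumor. The count called lower was 0, and 1 with voom. Over all tested genes, 1097 higher and 1281 lower became 221 and 97 with the replicate block, 123 and 133 without wild-type tumors 2, 4 and 7, and 8 and 2 with the covariate. The lower count was 2014 with DESeq2 and 821 after the length and GC correction. Without 1 tumor the counts ran from 679 (wild-type tumor 4) to 1463 (wild-type tumor 1) higher and from 792 to 1570 lower (the same tumors).

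Expression profiles did not pair the tumors by number, which cannot exclude that equal numbers share a batch or an origin. Same-numbered tumors correlated from -0.17 to 0.237 over 7 pairs, and 0 of 7 correlated best with their own number. With the replicate block 0 of 10 members were called, as without it. Depth limits Hrk, with 1 to 92 reads per tumor.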
